A study of Mus musculus with 31 samples.

Results

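Hotspots private to the inbred strain B6 (C57Bl/6J) are places where meiotic DNA double-strand breaks were mapped in B6 testis and in none of the other parental lists. They were chosen by the listed positions: a hotspot of the B6 list on chromosomes 1 to 19 was a member if its centre lay 400 bp or more from every hotspot centre in 6 other lists. These were the wild-derived lines PWD (PWD/PhJ), MOL (MOLF/EiJ) and CAST (CAST/EiJ), the laboratory strain C3H (C3H/HeJ), the congenic line 13R (B10.F-H2pb1/(13R)J) on a B10 background, and a Prdm9 knockout (B6;129P2-Prdm9<tm1Ymat>/J). Of 18130 autosomal B6 hotspots 12965 met the rule, among 414683 hotspots in all 26 lists of the series. Breaks were mapped by DMC1 SSDS, an assay that sequences the single-stranded DNA ends on which the strand-exchange protein DMC1 has loaded. Each genotype had 1 library, so no value for a single genotype has a replicate error. The members were followed in the lists of 19 F1 crosses, which the rule did not use: 10 with a B6 parent (B6 with 13R, C3H, CAST, MOL and PWD, each in both directions) and 9 without. In a cross name, f follows the mother's strain and m the father's.  The testes were frozen, and the sources used here give neither ages nor whether animals were pooled. The series text leaves the label of the CAST library in doubt, and all values assume that the label is right.

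In mice, PRDM9 binds DNA through a zinc finger array and methylates the histones beside its site, and most meiotic breaks form there. The zinc finger array differs between strains, so that different strains break their chromosomes at different places. An F1 hybrid carries the PRDM9 of both parents and a chromosome set of each, and its hotspot list can hold places from either parent. A break is repaired by copying the partner chromosome, and over generations this removes the DNA letters that PRDM9 recognises best.

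The DNA at the centre of a member could be read only where a RefSeq promoter window of GRCm38.p6, the primary assembly of mm10, covers it. Such windows run from 250 bases before to 50 after a transcription start. They held the centres of 27 members (0.208%), beside 61 of all autosomal B6 hotspots (0.336%). The 5 strongest of these members are printed, 5′ to 3′ on the strand of the gene and in lower case. Capitals mark the 20 bases around the hotspot centre. The windows are Dennd1b (chr1:138967471-138967770, + strand), 5730405A17Rik (chr8:61428079-61428378, - strand), Akt2 (chr7:27605547-27605846, + strand), Lims1 (chr10:58371204-58371503, + strand) and Gm28643 (chr2:45132191-45132490, + strand).
Dennd1b: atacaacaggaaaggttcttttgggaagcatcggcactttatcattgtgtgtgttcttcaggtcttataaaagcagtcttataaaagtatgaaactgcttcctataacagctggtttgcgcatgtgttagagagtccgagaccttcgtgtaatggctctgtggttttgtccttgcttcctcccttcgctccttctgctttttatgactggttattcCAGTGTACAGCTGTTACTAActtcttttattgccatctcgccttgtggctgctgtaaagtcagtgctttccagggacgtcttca
5730405A17Rik: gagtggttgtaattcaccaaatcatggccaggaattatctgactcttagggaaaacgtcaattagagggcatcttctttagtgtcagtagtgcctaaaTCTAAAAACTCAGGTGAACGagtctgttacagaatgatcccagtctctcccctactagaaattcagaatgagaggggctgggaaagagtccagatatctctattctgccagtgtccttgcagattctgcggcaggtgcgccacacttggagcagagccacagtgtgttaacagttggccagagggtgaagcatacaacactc
Akt2: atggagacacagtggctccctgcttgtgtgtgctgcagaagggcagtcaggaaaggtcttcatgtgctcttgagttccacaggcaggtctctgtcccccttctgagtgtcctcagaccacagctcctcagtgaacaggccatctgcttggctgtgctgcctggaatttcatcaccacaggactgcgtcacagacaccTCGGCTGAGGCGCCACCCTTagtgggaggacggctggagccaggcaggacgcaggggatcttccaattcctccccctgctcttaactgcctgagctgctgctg
Lims1: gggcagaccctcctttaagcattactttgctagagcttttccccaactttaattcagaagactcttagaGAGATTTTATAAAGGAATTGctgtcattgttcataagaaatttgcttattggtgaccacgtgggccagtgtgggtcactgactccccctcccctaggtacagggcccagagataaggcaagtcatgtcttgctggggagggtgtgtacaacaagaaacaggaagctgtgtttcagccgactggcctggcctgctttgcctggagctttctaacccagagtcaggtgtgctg
Gm28643: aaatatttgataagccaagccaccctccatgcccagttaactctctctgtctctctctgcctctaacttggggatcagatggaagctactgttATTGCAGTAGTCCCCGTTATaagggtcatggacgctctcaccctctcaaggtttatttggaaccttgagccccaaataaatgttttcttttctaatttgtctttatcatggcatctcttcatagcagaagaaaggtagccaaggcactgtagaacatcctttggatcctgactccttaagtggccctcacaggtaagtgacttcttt

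These 5 places lay 25 to 172 bp upstream of a start, and their G and C content ran from 43.3% to 58.7%, beside a median of 52.7% over 32851 windows. The hotspot at 5730405A17Rik, which lies inside Sh3rf1, ranked 808 in B6 and was present in all 10 B6 crosses. The one at Dennd1b, which encodes an exchange factor for Rab GTPases, ranked 791 in B6 and was present in 6. Those at Lims1, a focal adhesion gene, and Akt2, a kinase gene of insulin signalling, were present in 5 and 3, and the one at Gm28643 in 1. None of the 5 was present in a cross without a B6 parent. Members alike in B6 strength, such as the first pair, thus differed in how many crosses held them.

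Most B6 hotspots outside the set were also C3H hotspots: 4575 (25.2%) had a C3H centre under 400 bp away. The other lists removed few, with 287 at a knockout centre (1.58%), 159 at 13R (0.877%), 154 at PWD (0.849%), 136 at MOL (0.750%) and 119 at CAST (0.656%). The nearest centre in any of these lists lay at a median of 7538 bp from a member (quartiles 3194 and 16342). The 83 members at 400 to under 450 bp had a median B6 strength percentile of 42.3, and the 114 hotspots at 350 to under 400 bp, which were left out, had 43.5. Their mean recovery in B6 crosses was 28.4% and 26.0%. In crosses without B6 it was 9.64% and 9.84%, against 1.04% for all members. Members just past the 400 bp limit were thus less confined to B6 crosses than the whole set. The percentile runs from 0 for the weakest to 100 for the strongest autosomal hotspot of a list. The deposited score has no stated scale and was used only within a list.

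Members made up most of the B6 list at every strength, and more so among weak hotspots. They were 77.9% of the weakest decile of autosomal B6 hotspots (1413 of 1813, 95% Clopper-Pearson interval 76.0 to 79.8) and 61.6% of the strongest decile (1117 of 1813, 59.3 to 63.9). Together they held 65.7% of summed B6 autosomal strength, of which 22.8 percentage points lay in the strongest decile. Their median percentile was 46.4, against 58.9 for the other 5165 hotspots. Median width rose from 1118 bp in the weakest decile to 2974 bp in the strongest. On single chromosomes, members were between 69.1% of B6 hotspots (chromosome 2) and 74.8% (chromosome 11). The rule used the B6 list itself, so these values are descriptions.

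Members returned in hybrids with a B6 parent and were nearly absent from hybrids without one. A member was counted as present when a hotspot centre of the cross lay under 400 bp from its centre. The share present averaged 20.8% ± 11.4 (SD, n = 10) in crosses with B6 and 1.04% ± 1.18 (SD, n = 9) in crosses without. All 10 values in the first group lay above all 9 in the second. The difference was 19.8 percentage points (two-sided exact permutation test over crosses, p = 2.17e-05; the smallest possible is 1.08e-05). The test treats crosses as independent, although many have a parent in common. The rule also removed every B6 hotspot near one listed in a parent of the 9 crosses without B6. A low share in those crosses was thus largely set in advance, and the p-value is not independent evidence that members follow B6. With only the strongest 9748 hotspots of each cross, the length of the shortest list, the difference was 12.4 points (exact permutation p = 1.08e-05). Among members in the stronger 50% of B6 hotspots it was 36.2 points (exact permutation p = 2.17e-05).

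**Figure D1:**
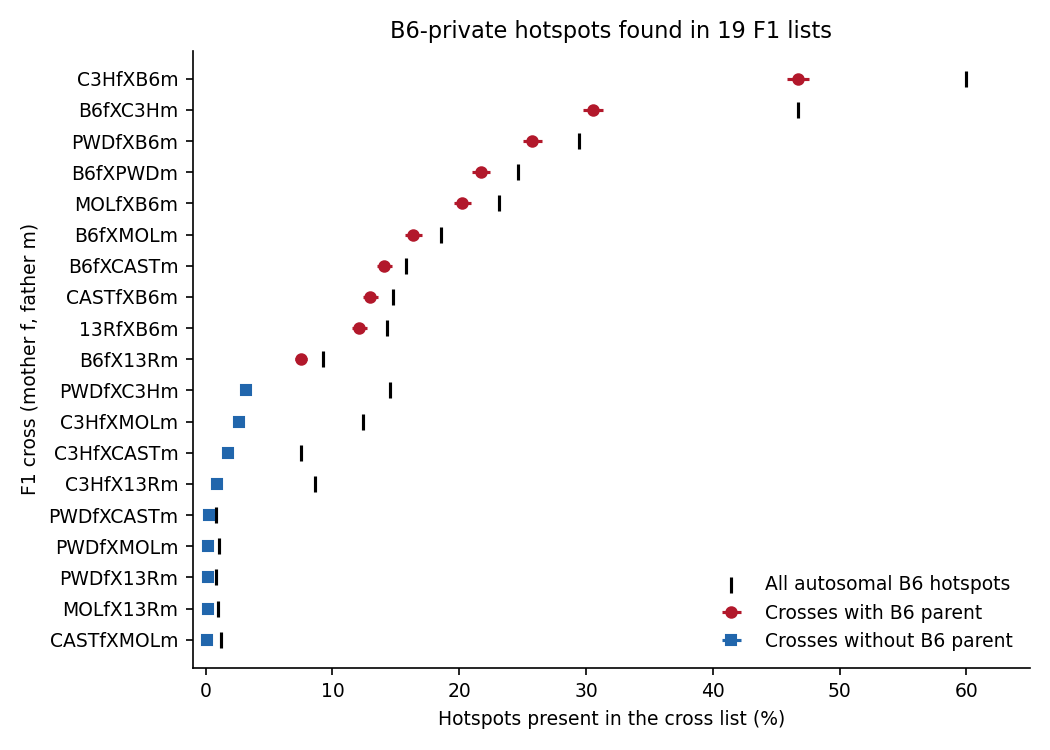
Share of B6-private hotspots present in each of 19 F1 lists (circles for crosses with a B6 parent, squares for crosses without, bars for the 95% Clopper-Pearson interval), with the share of all autosomal B6 hotspots as black ticks. The crosses with B6 run from 7.52% to 46.7%, and the crosses without B6 from 0.116% to 3.18%.

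The share present differed by the other parent. The crosses with C3H held the most: 46.7% in C3HfXB6m (45.8 to 47.6, 6053 members), where 60% of all autosomal B6 hotspots were present, and 30.5% in B6fXC3Hm (29.7 to 31.3), where 46.7% of all were. With PWD the share was 25.7% in PWDfXB6m (25 to 26.5), against 29.4% of all B6 hotspots, and 21.7% in B6fXPWDm (21.0 to 22.4), against 24.6%. With MOL it was 20.2% in MOLfXB6m (19.6 to 21.0), against 23.1%, and 16.4% in B6fXMOLm (15.7 to 17.0), against 18.6%. With CAST it was 14.1% in B6fXCASTm (13.5 to 14.7), against 15.8%, and 13.0% in CASTfXB6m (12.4 to 13.6), against 14.8%. The crosses with 13R held the fewest, with 12.1% in 13RfXB6m (11.6 to 12.7), against 14.3%, and 7.52% in B6fX13Rm (7.07 to 7.99), against 9.25%. In all 10 the members' share lay below that of all B6 hotspots. The latter include those shared with the other parent, which were 25.2% of B6 hotspots for C3H but 0.656% (CAST) to 0.877% (13R) for the other partners. Members were also weaker in B6, at a median percentile of 46.4 against 58.9 for the other B6 hotspots. The cause of the gap was not tested. Intervals cover counting error only, and the lists differed in length, from 9748 autosomal hotspots in B6fX13Rm to 17123 in C3HfXB6m.

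At equal list length the order of the partners changed little, while the directions drew together. In the strongest 9748 hotspots the shares were 20.3% and 20.2% for B6fXC3Hm and C3HfXB6m, 16.5% and 15.7% for B6fXPWDm and PWDfXB6m, and 13.4% and 12.3% for B6fXMOLm and MOLfXB6m. They were 9.02% and 8.24% for B6fXCASTm and CASTfXB6m, and 7.52% and 7.56% for B6fX13Rm and 13RfXB6m. In the full lists a B6 mother went with a lower share than a B6 father in 4 of 5 pairs, by a mean of -5.51 percentage points (18.0% ± 8.64 against 23.6% ± 14.1, SD, n = 5; exact sign-flip permutation p = 0.125, where 0.063 is the smallest possible). The C3H pair differed by -16.2 points and without it the mean was -2.85. At equal length the sign turned, to 0.549 (exact permutation p = 0.125).

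Presence rose with strength in B6. The autosomal B6 hotspots were cut into 10 deciles of strength, decile 10 being the strongest. In decile 10 the crosses with B6 held a mean of 79.1% ± 16.3 of members (SD, n = 10), from 55.1% in CASTfXB6m to 99.5% in C3HfXB6m. The crosses without B6 held 2.07% ± 2.30 (n = 9). In the weakest decile the means were 4.25% ± 3.22 and 0.959% ± 1.01, and 7 of the 10 B6 crosses lay above all of the others. The difference passed in each decile (two-sided exact permutation test, Benjamini-Hochberg over 10 deciles), from 3.29 points in the weakest (adjusted p = 0.00502) to 77.0 points in the strongest (adjusted p = 0.000108). The membership rule held down the shares without B6 in every decile, so these tests are not independent of how members were chosen. Decile 7 separated the partners widely: it held 64.9% in C3HfXB6m, 23.7% in PWDfXB6m, 11.3% in CASTfXB6m and 0.962% in B6fX13Rm. The shares over all B6 hotspots of each decile were not computed. Neither the rise with strength nor the split by partner is thus shown to be particular to members.

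**Figure D2:**
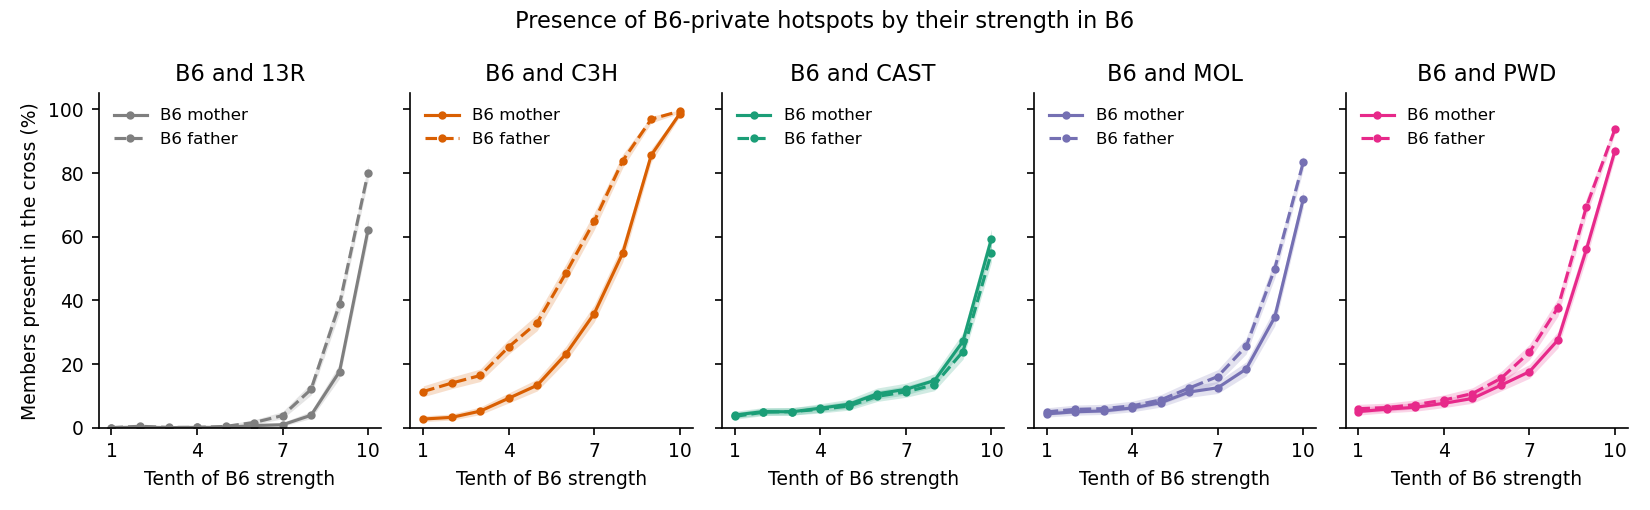
Percentage of B6-private hotspots present in the cross (vertical axis) by decile of B6 strength, 10 being the strongest, for each partner strain; solid lines have a B6 mother, dashed lines a B6 father, and shading is the 95% Clopper-Pearson interval. The 13R curves stay near 0 until the strong deciles, while those with CAST, MOL and PWD start at 3.61% to 6.02% in the weakest decile.

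Weak members, those in the weaker 50% of B6 hotspots (6976 members), returned with some partners and hardly with others. With 13R almost none came back: 9 in B6fX13Rm (0.129%, 0.0590 to 0.245) and 18 in 13RfXB6m (0.258%, 0.153 to 0.407), where 0.739% and 1.04% of all weaker B6 hotspots were present. With CAST, MOL and PWD between 365 and 544 came back in each of the 6 crosses, 5.23% in CASTfXB6m (against 6.09% of all weaker B6 hotspots) to 7.80% in PWDfXB6m (against 9.73%). B6fXCASTm had 5.53% (6.29% of all), B6fXMOLm 5.75% (6.53%), MOLfXB6m 6.48% (7.41%) and B6fXPWDm 6.84% (8.06%). With C3H it was 6.71% in B6fXC3Hm (22.1%) and 19.9% in C3HfXB6m (35.1%). At equal list length the 6 crosses still held 3.87% to 5.55% of weak members. Those with C3H held 1.75% to 2.11% and those with 13R 0.0860% to 0.129%. Present in both directions at that length were 1.20% with C3H, beside 11.4% of all weaker B6 hotspots. With CAST it was 3.76% (4.28% of all), with MOL 4.54% (4.99%), with PWD 5.12% (5.67%) and with 13R 0.0573% (0.640%). The lower share with C3H than with CAST, MOL and PWD was thus seen in members and not in all weaker B6 hotspots. These groupings of partners were made after the values were seen and were not tested.

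The weak members that returned with CAST, MOL or PWD stood mostly above the middle of the hybrid's list. Their median strength percentile in the cross was 61.0 in B6fXCASTm and 61.5 in CASTfXB6m, 62.3 in B6fXMOLm and 60.4 in MOLfXB6m, and 64.9 in B6fXPWDm and 63.9 in PWDfXB6m. Members from the stronger 50% of B6 had lower medians in the same 6 lists, from 42.1 in B6fXCASTm to 50 in PWDfXB6m. With C3H the order was the opposite: weak members that returned had medians of 15.2 and 18.2, and stronger ones 41.7 and 45.8. Only present members enter these medians, so members not listed in a cross are left out of them. The cause of the difference between partners was not tested. In the 6 crosses, 56 (of 386 present, B6fXCASTm) to 98 (of 544, PWDfXB6m) weak members reached percentile 90 or more. With C3H it was 5 of 468 and 8 of 1389, and with 13R 0 of 9 and 1 of 18. These counts were not made over all weaker B6 hotspots, so they are not shown to be particular to members. The weak members present in the 6 crosses had centres a median of 59 to 84.5 bp from the B6 centre. For stronger members in all 10 crosses it was 44 to 55 bp.

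**Figure D3:**
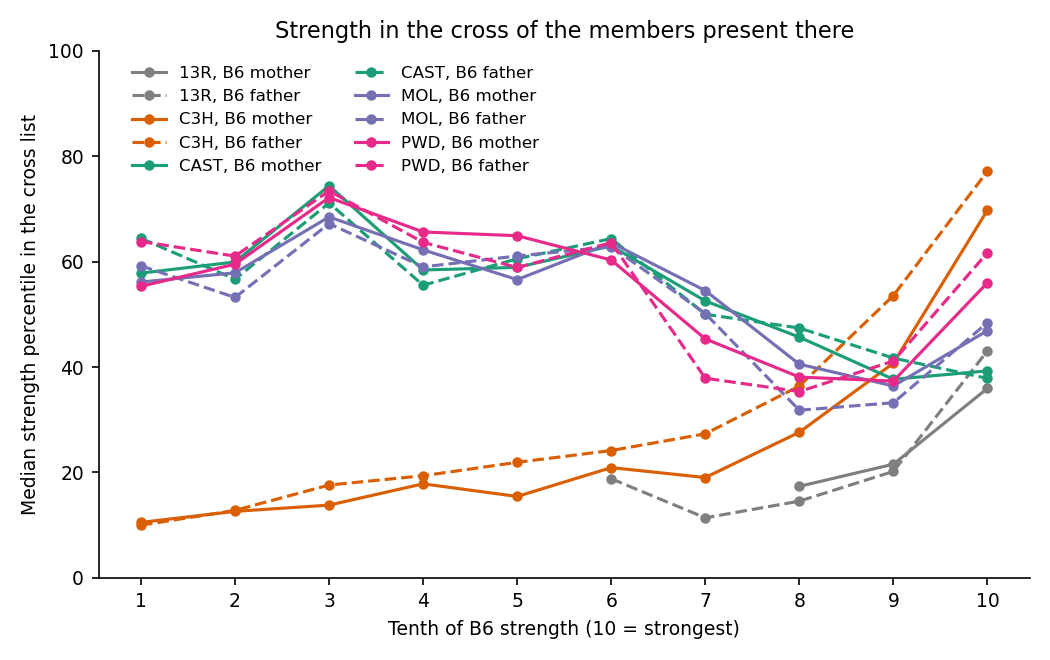
Median strength percentile in the cross list (vertical axis) of the B6-private hotspots present there, by decile of their B6 strength (10 = strongest), one line per cross; points with fewer than 20 members present are not drawn. Lines for CAST, MOL and PWD lie between 53.2 and 74.4 in the 6 weaker deciles, while the C3H lines climb from 10.5 and 9.98 to 69.7 and 77.1.

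Across all present members, the relation of strength in B6 to strength in the cross was positive with C3H and 13R, near 0 with PWD and MOL, and weakly inverse with CAST. Spearman's rank correlation over members present was 0.656 in B6fXC3Hm (3958 members) and 0.705 in C3HfXB6m (6053). It was 0.406 in B6fX13Rm (975) and 0.518 in 13RfXB6m (1573). With PWD it was 0.0282 (2815) and 0.0951 (3338), with MOL -0.0879 (2124) and -0.0417 (2625), and with CAST -0.165 (1828) and -0.187 (1685). Within the stronger 50% the median over the 10 crosses was 0.209, in place of 0.0617, and it was 0.168 and 0.250 with PWD. The points are hotspots that share 1 library on each axis, so the correlation is a description. Between the directions of 1 cross, the rank correlation of the percentiles over members in both was 0.831 (13R, 960 members) to 0.953 (CAST, 1620 members).

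The weak members that came back with CAST, MOL and PWD overlapped, as weak B6 hotspots in general did. Of weak members present in both directions, 352 returned with CAST (5.05%, beside 5.73% of all weaker B6 hotspots), 387 with MOL (5.55%, beside 6.29%), 464 with PWD (6.65%, beside 7.81%), 453 with C3H (6.49%, beside 21.8%) and 8 with 13R (0.115%, beside 0.695%). CAST and MOL had 257 in common (73.0% of the first, 66.4% of the second), where all weaker B6 hotspots gave 68.0% and 61.9%. CAST and PWD had 261 in common (74.1% and 56.3%, beside 69.9% and 51.3%), and MOL and PWD 311 (80.4% and 67.0%, beside 76.8% and 61.9%). C3H and CAST had 38 in common (8.39% and 10.8%, beside 7.59% and 28.9%). A set of 220 weak members (3.15%) was present in all 6 crosses, beside 3.34% of all weaker B6 hotspots. With 13R none of the 220 was present in either cross, where 0.129% and 0.258% of all weak members were, too few to tell the set from the rest. With C3H 22 were present in B6fXC3Hm (10%, beside 6.71% of all weak members) and 56 in C3HfXB6m (25.5%, beside 19.9%). Their mean percentile over the 6 crosses had a median of 72.8, and it was 90 or more for 40 of them. They lay on all 19 autosomes, and 53.2% were inside protein-coding genes, against 49.9% of all weak members. Their median width in B6 was 1406 bp, against 1346 bp.

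The 5 of these with the highest mean percentile were picked after their values were seen. The first lay outside genes, 16180 bp from Apela, which encodes a peptide hormone, on chromosome 8 (65052828 to 65054205). It ranked 13544 in B6, at percentile 25.3, and stood at 99.7 and 99.8 with CAST, 99.9 and 99.8 with MOL, and 99.8 and 99.6 with PWD, B6 mother given first. It was absent from both crosses with 13R and both with C3H, but stood at 98.9 in C3HfXCASTm, 99.2 in C3HfXMOLm and 95.8 in PWDfXC3Hm. A member inside Eya4, a transcriptional coactivator and phosphatase gene, on chromosome 10 (23135097 to 23136598) had percentile 49.2 in B6 and a mean of 99.2 ± 0.134 (SD) over the 6 crosses. In B6fXC3Hm and C3HfXB6m it stood at 25.5 and 35.2, and in C3HfXCASTm, C3HfXMOLm and PWDfXC3Hm at 94.3, 94.2 and 97.5. The member 6072 bp from Lmbr1 on chromosome 5 (29383899 to 29385088) had percentile 3.39 in B6 and a mean of 99.1 ± 0.885, and stood at 67.7, 89.3 and 91.7 in the same 3 crosses without B6. Those inside Col22a1, a collagen gene, on chromosome 15 (71943075 to 71944210) and Dock8, an exchange factor gene of immune cells, on chromosome 19 (25101066 to 25102003) had means of 98.9 ± 0.513 and 98.6 ± 0.734. Their B6 percentiles were 30.6 and 25.7. Dock8 stood at 96.7, 96.6 and 98.2 in those 3 crosses, and Col22a1 was absent from them. All 5 were absent from the crosses with 13R.

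The 10 strongest members were present in every B6 cross. The second strongest autosomal hotspot of B6 was the strongest member; it lay 341410 bp from Adamts5, an aggrecan-cleaving protease gene, on chromosome 16 (86240837 to 86244234). Its percentile in the 10 crosses ran from 19.6 in B6fXCASTm to 96.8 in C3HfXB6m, with a median of 70.9. Both CAST crosses lay below the other 8. The member 562044 bp from Cdh6, a cadherin gene, on chromosome 15 (13736800 to 13740103) was low with CAST as well, at 46.0 and 44.8, with a median over 10 crosses of 75.5. The CAST crosses were also the lowest pair for Neb (75.8 and 68.0), Slc7a14 (69.2 and 55.7) and Erbb4 (88.8 and 91.3), B6 mother first. Tulp4 on chromosome 17 (6154078 to 6157703) differed: its member stood at 98.9 and 96.7 with CAST and at 63.9 and 69.2 with 13R, with a median of 97.0. The member 3862 bp from Nedd1, a centrosome gene, on chromosome 10 (92678589 to 92683178) kept 94.8 to 99.97 in all 10, with a median of 99.3. It was also in C3HfX13Rm (54.1) and PWDfXC3Hm (81.1), as was the one near Cmpk2 (25.4 and 40.1). The other members among the 10 strongest were in no cross without B6. Those 209751 bp from Cmpk2 on chromosome 12 (26687179 to 26691998) and inside Erbb4, a neuregulin receptor gene, on chromosome 1 (68486860 to 68491319) had medians of 98.7 and 95.04. Neb, the gene of the giant muscle protein nebulin, on chromosome 2 (52157466 to 52161791) held a member with values of 68.0 to 97.3. The remaining members among the 10 strongest, near Slc7a14 and Slc35a3 on chromosome 3 and Tomm7 on chromosome 5, had medians of 89.2, 88.5 and 77.6. As for Tulp4, the 13R crosses were the lowest pair for Slc35a3 (73.9 and 76.5) and Tomm7 (59.1 and 68.8), B6 mother first.

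**Figure D4:**
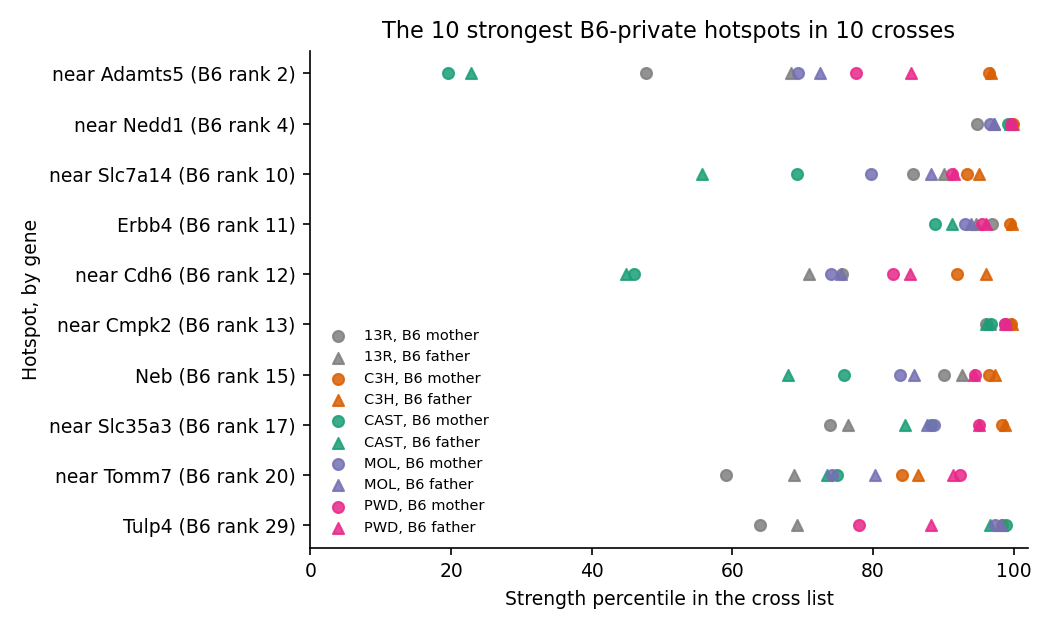
Strength percentile in each of 10 crosses (horizontal axis) for the 10 strongest B6-private hotspots, named by the gene they lie in or near; colours give the partner strain, circles a B6 mother and triangles a B6 father. The CAST crosses stand lowest for Adamts5 (19.6 and 22.8), Cdh6, Neb, Slc7a14 and Erbb4, and the 13R crosses for Tulp4, Slc35a3 and Tomm7. Reciprocal crosses can differ, as for Adamts5 with 13R (68.4 and 47.8).

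By mean percentile among members present in all 10 crosses, the first 5 included Nedd1 and Cmpk2 again. The others lay inside Ttk, a spindle checkpoint kinase gene, on chromosome 9 (83857751 to 83863154), at 97.2 ± 1.75 (SD over 10 crosses), inside Armc9 on chromosome 1 (86216086 to 86220063), at 96.7 ± 2.35, and inside Dlc1 on chromosome 8 (36568874 to 36573233), at 95.5 ± 3.49. The 10 strongest members and these 5 lie in B6 at percentile 99.7 or above. The Armc9 member was also in C3HfXCASTm (15.8) and C3HfXMOLm (74.6), and the Ttk member was in no cross without B6.

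Members differed widely in how many B6 crosses held them. None of the 10 held 6106 members (47.1%, beside 34.3% of all autosomal B6 hotspots), and all 10 held 593 (4.57%, beside 5.29%). At equal list length 291 were in all 10 and 8972 in none, and the shares over all B6 hotspots were not computed there. In the full lists the 6106 members in none had a median B6 percentile of 27.1 and the 593 in all 10 had 95.5. The weakest member present in all 10 had percentile 52.9, so no member of the weakest decile was present in all. Of the 5989 members in the stronger 50%, 1059 were in none. The same share over all stronger B6 hotspots was not computed, so this is not shown to be particular to members. The strongest of the 1059 ranked 324 in B6 and lay 3541 bp from Vps13b on chromosome 15 (35366573 to 35368582). The next were inside Mroh2b on chromosome 15 (4940397 to 4942864) at rank 2426 and 44581 bp from Clvs1 on chromosome 4 (9099102 to 9101227) at rank 2548. A centre in a B6 cross lay 405 bp from the Mroh2b member, just outside the 400 bp window, so its absence rests on that window.

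**Figure D5:**
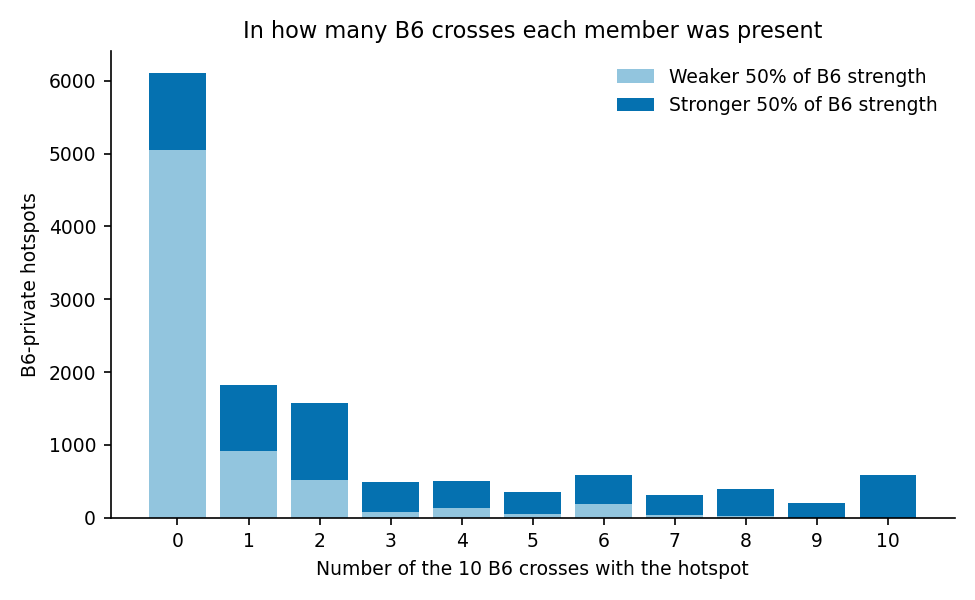
Number of B6-private hotspots (vertical axis) by how many of the 10 B6 crosses held them, split into the weaker and the stronger 50% of B6 strength. In none were 5047 weaker and 1059 stronger members, and in all 10 were 0 weaker and 593 stronger members.

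Some members were listed with 1 partner alone. Members present in both directions with C3H and in no other B6 cross numbered 1284 (9.90%, beside 20.4% of all autosomal B6 hotspots, which include those of C3H). Their median percentile was 64.1 in B6 and 28.8 in the C3H crosses. For the other partners such members were few: 72 with PWD (0.555%, beside 0.574%), 55 with CAST (0.424%, beside 0.408%), 37 with MOL (0.285%, beside 0.276%) and 7 with 13R (0.0540%, beside 0.243%). The reverse pattern, absent in both directions with 1 partner and present in all other 8 crosses, was found for 203 members with 13R (1.57%, beside 2.45%) and 117 with CAST (0.902%, beside 1.12%). It was found for 5 with MOL (0.0386%, beside 0.0552%), 4 with PWD (0.0309%, beside 0.0331%) and 2 with C3H (0.0154%, beside 0.0441%). Except for the C3H and 13R counts, these shares lay near those of all B6 hotspots. At equal list length the members present with C3H alone were 743 (5.73%, beside 16.7% of all autosomal B6 hotspots). Those absent only with 13R were 106 (0.818%, beside 1.49%). Those absent only with CAST were 177 (1.37%, beside 1.48%), near the share of all B6 hotspots.

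Among crosses without B6, members were found more often with a C3H parent. The 4 crosses of C3H with another strain held 2.10% ± 1.01 (SD) of members, and the 5 without C3H held 0.196% ± 0.0558, a difference of 1.91 points (two-sided exact permutation test, p = 0.00794, the smallest that 4 against 5 allow). PWDfXC3Hm held 3.18% (2.88 to 3.49; 14.5% of all autosomal B6 hotspots), C3HfXMOLm 2.59% (12.4% of all), C3HfXCASTm 1.77% (7.48%) and C3HfX13Rm 0.864% (8.59%). The shares of all B6 hotspots there include those that B6 has in common with C3H. PWDfXCASTm held 0.270% (0.833% of all), PWDfXMOLm 0.216% (1.03%), PWDfX13Rm 0.193% (0.816%), MOLfX13Rm 0.185% (0.949%) and CASTfXMOLm 0.116% (1.24%). The centres in the C3H crosses lay a median of 67 to 76.5 bp from the member, and those in the other 5 at 198.5 to 272 bp, within a window of 400 bp.

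At least 1 cross without B6 held 589 members (4.54%, beside 18.3% of all autosomal B6 hotspots), and 36 of these were in no B6 cross. Among crosses with C3H, the share of weak members was higher with CAST, MOL or PWD than with 13R, which was not tested. C3HfXCASTm held 1.51% of the weaker 50%, C3HfXMOLm 2.08% and PWDfXC3Hm 2.68%, against 0.373% in C3HfX13Rm. At least 1 of the first 3 held 74 of the 220 weak members that were in all 6 B6 crosses with CAST, MOL and PWD, beside 238 of all 6976 weak members (3.41%). C3HfX13Rm held 0 of the 220, where it held 0.373% of all weak members. Shares over all weaker B6 hotspots were not computed for these 4 crosses of C3H, so the contrasts are not shown to be particular to members. The member in most crosses without B6, with 5, lay 56605 bp from Grm4, a glutamate receptor gene, on chromosome 17 (27364260 to 27367305). It ranked 2250 in B6 and was present in all 10 B6 crosses, at percentiles of 48.4 to 96.0. Another 42 members were present in 4 such crosses. The strongest of these in B6 were the one inside Dlc1 and one 30860 bp from Psd3 on chromosome 8 (68240706 to 68245141).

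Members were compared with the 4411 hotspots that B6 shared with C3H and no other parental list, in the 8 B6 crosses without C3H. Averaged over deciles of B6 strength, 17.9% ± 6.28 (SD, n = 8) of members and 18.9% ± 7.01 of the shared hotspots were present, which differ by -1.08 points (exact two-sided sign-flip permutation, p = 0.0312). It was negative in the 6 crosses with CAST, MOL and PWD, from -0.864 in B6fXCASTm to -2.15 in MOLfXB6m, and positive with 13R, at 0.505 and 0.0134. The directions of a cross have both strains in common, and every pair had 1 sign. With both directions averaged, so that each of 4 partners counted once, p was 0.25 (exact sign-flip). A sign-flip test over 4 values cannot pass, whatever the values, so it cannot decide whether the difference holds across partners. Over the 8 crosses, leaving out any 1 of those 6 raised p to 0.063, and in the stronger 50% of B6 it was 0.0781 (exact sign-flip). Without averaging over deciles the difference was -7.26 points.

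Within the hybrids, members were also set beside the hotspots private to the other parent by the same rule. Their median percentile averaged 42.7 ± 7.96 (SD, n = 10), against 48.6 ± 4.10 for those of the other parent, a difference of -5.89 that did not pass (two-sided exact sign-flip permutation, p = 0.164). The partners differed in sign. Against 13R-private hotspots, members differed by -24.8 percentile points in 13RfXB6m and -24.5 in B6fX13Rm, and against C3H-private ones by -10.6 in C3HfXB6m and -11.0 in B6fXC3Hm. They lay above PWD-private hotspots by 6.67 in PWDfXB6m and 8.39 in B6fXPWDm, and differed from those private to CAST and MOL by -2.90 (MOLfXB6m) to 0.810 (B6fXMOLm). In all 10 crosses a larger share of the other parent's private hotspots than of the members was present, from 29.6% of PWD-private hotspots in B6fXPWDm to 70.5% of 13R-private hotspots in 13RfXB6m. These shares were not matched for strength in the parent or for the length of the parental list. The B6 list held 18130 autosomal hotspots, and the other parents' lists 13501 (PWD) to 14585 (MOL). Members made up 5.60% (B6fX13Rm) to 24.9% (C3HfXB6m) of the summed autosomal strength of a B6 cross.

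Members lay inside genes about as often as B6 hotspots in general. Their centres were inside a protein-coding gene for 6630 members (51.1%, 50.3 to 52.0, beside 52.2% of all autosomal B6 hotspots), in 4015 genes, and within 1000 bp of a gene end for 332 (2.56%, beside 3.14%). Within 2500 bp of an end lay 923 (7.12%, beside 7.7%). Inside genes of 500 kb or more lay 965 (7.44%, beside 7.47%), and inside genes of 1 Mb or more 327 (2.52%, beside 2.66%). Mean recovery over the 10 B6 crosses was 21.4% inside genes and 20.1% outside. Auts2, a neurodevelopmental gene, and Lrmda each held 14 members, Lrp1b, a giant lipoprotein receptor gene, 13, and Frmd4a and the adhesion gene Lsamp 12 each. The gene table gives gene spans only, so exons and introns were not told apart.

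Gene lists of neurons and of meiosis are described by their counts. Of all B6 hotspots inside protein-coding genes, 70.1% were members. GABA and glutamate receptor genes held 53 members of 70 B6 hotspots (75.7%), in 21 of 39 genes. Their mean recovery was 35.1%, beside 21.4% for all members inside genes, and their median B6 percentile 65.7, beside 47.5. The strongest was in Gabrb1, which encodes a GABA-A receptor beta subunit (chromosome 5, 71851555 to 71854904, rank 188), with percentiles of 39.2 to 82.8 in the 10 crosses. Grin2b on chromosome 6 (136070215 to 136073500, rank 570) was present in all 10 and Grm7 on chromosome 6 (110828883 to 110831628, rank 658) in 8, being absent with CAST. Long neuronal adhesion and scaffold genes held 236 members of 358 B6 hotspots (65.9%), in 42 of 43 genes, with 21.7% recovery. After Erbb4 the strongest were inside Sgcz, a sarcoglycan gene, on chromosome 8 (37992680 to 37996347, rank 149) and Auts2 on chromosome 5 (132041871 to 132044842, rank 219). Their percentiles in crosses with B6 were 67.8 to 96.5 and 11.8 to 93.1. The Sgcz member was also in C3HfX13Rm (23.7), C3HfXMOLm (22.0) and PWDfXC3Hm (47.3), and the Auts2 member in no cross without B6.

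Genes of break formation and strand exchange held 5 members of 9 B6 hotspots, in 5 of 19 genes. The one inside Atm, the kinase that limits meiotic break number, on chromosome 9 (53496391 to 53500808, rank 1721) was present in both C3H crosses, at 75.7 and 87.5, and at 12.5 in PWDfXB6m. The one inside Iho1, an axis-bound break factor gene, on chromosome 9 (108404274 to 108406107) was present in C3HfXB6m alone of the 10, and the one inside Gm960 on chromosome 19 (4626082 to 4627693) in none. Synaptonemal complex, cohesin and crossover genes held 3 members of 6 B6 hotspots, in 3 of 23 genes. The one inside Sycp2, an axial element gene, on chromosome 2 (178403831 to 178406696, rank 2397) was present in 4 crosses, and those inside Cntd1 on chromosome 11 and Msh4, a mismatch repair homologue of meiosis, on chromosome 3 in none. Olfactory receptor genes held 4 members of 7 B6 hotspots, in 3 of 1100 genes, 2 of them inside Olfr1358 on chromosome 10 and 1 inside Olfr112 on chromosome 17.

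Genes that hold or adjoin well-studied mouse recombination hotspots were looked up by name. Inside H2-Eb1, an MHC class II gene, on chromosome 17 (34312307 to 34313846) a member at B6 percentile 26.5 was present in 4 B6 crosses, both with C3H and both with PWD, at 1.23 to 20.4. Esrrg on chromosome 1 held 6, of which 3 were in no B6 cross, and the strongest (188082766 to 188085403, percentile 89.7) was in 3. No member lay within 10000 bp of Psmb9 or Hlx.

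On the X chromosome, which a male inherits from its mother, 691 of 1246 B6 hotspots met the same rule, and B6 crosses held 10.3% (B6fXCASTm) to 39.9% (C3HfXB6m) of them. With a B6 mother, whose X the males carry, the share was lower than with a B6 father in all 5 pairs, by a mean of -5.09 points (16.9% ± 7.02 against 22.0% ± 10.5, SD, n = 5; two-sided exact sign-flip permutation p = 0.063, the smallest possible). Equal list length left a difference of -0.0579 (exact sign-flip p = 0.938). The X list was longer with a B6 father in all 5 pairs, for example 1020 against 762 hotspots with C3H. Shares over all 1246 X hotspots of B6 were not computed, so none of these values is shown to be particular to private ones.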

How the data were processed

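DMC1 SSDS libraries from frozen testis of 26 mouse genotypes were used, 1 per genotype; 5 input samples among the 31 labelled were not used here. Per the file columns, every deposited list holds the coordinates of each hotspot and its strength as a score. The scale of the authors' score is not stated, and 104 of 414683 values lie below 0. The submitters' processing notes name mm10 as the genome build, and name CASAVA 1.8 and MACS2 2.0.10. Filters and read depth are not given in these sources. Starts were read as 0-based and are printed 1-based. Percentiles were computed among the autosomal hotspots of a list. Genes came from a RefSeq table of GRCm38.p6 (20661 protein-coding symbols on autosomes). Code ran in Python 3.11.15 with scipy 1.17.1 and was tested on simulated lists. The threshold was 0.05, and 95% Clopper-Pearson intervals cover counting error only.

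Tests were exact permutations over crosses or exact sign flips over crosses or pairs. The members and lists were chosen with earlier results of these data known. Named hotspots were the 10 strongest members, the 5 with the highest mean percentile in all 10 B6 crosses, the 3 strongest in no B6 cross, the 3 in most crosses without B6, members within 10000 bp of Psmb9, H2-Eb1, Hlx or Esrrg, up to 3 members inside genes of each of 5 gene lists, and 5 with promoter sequence. A rule for members of the weakest decile in all 10 crosses named none. The weaker 50% and the 5 members described from it were chosen after seeing the data. A promoter window took the place of a genome sequence, and the planned PRDM9 protein sequence was not used here.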

Additional observations from a re-analysis of the deposited data

Results flagged for a closer look

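C3HfXB6m stood far above the other 9 crosses with B6 in the share of members present in each of the 6 weakest deciles of B6 strength. From the weakest decile upwards the shares were 11.4%, 14.1%, 16.4%, 25.4%, 33.1% and 48.5%, and the next highest cross had 6.02%, 6.36%, 7.30%, 9.30%, 13.4% and 23.1%. The same shares over all B6 hotspots of a decile were not computed. C3HfXB6m had the longest list of the 10, with 17123 autosomal hotspots. At equal list length it held 1.75% of the weaker 50% of members, in place of 19.9%. Among the 5 crosses with neither B6 nor C3H, PWDfXCASTm stood apart in decile 8 with 0.328% of members, against 0.0821% in the next, which is 4 members against 1. In all, 59 groups of crosses were examined for a far value and 7 results had one; chance gives about 1 in 20 groups, and the deciles of 1 cross are not independent.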

How the results depend on the processing

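The difference between crosses with and without B6 kept its sign and passed under each alternative, from 12.4 to 36.2 percentage points (exact permutation p at most 0.000999), and from 16.9 to 21.2 when each cross was left out in turn. All 10 deciles passed with other windows, overlap, list length, membership and decile limits, and with each cross left out. They were not rerun without the CAST or C3H crosses or in the stronger 50%. In both comparisons the membership rule held down the shares in crosses without B6, so passing was not independent of that rule. The C3H difference among crosses without B6 stayed between 1.35 and 2.43 points (exact permutation p at most 0.0286) and between 1.55 and 2.32 with a cross left out. The difference between B6 mother and father reversed to 0.549 at equal list length and ran from -7.17 to -2.85 with a pair left out; on X it ran from -6.22 to -3.47. The difference from hotspots shared with C3H fell short in the stronger 50%, at -0.948. It ran from -1.30 to -0.926 with a cross left out, where 6 of 8 omissions fell short. With both directions averaged it was -1.08 (exact sign-flip p = 0.25), an alternative chosen after seeing the data. That test, over 4 values, cannot pass whatever the values, so it decides nothing. The difference from the other parent's private hotspots did not pass under any alternative (-7.48 to -3.80 with a cross left out). Equal list length gave 291 members in all 10 crosses in place of 593 and turned the median rank correlation over crosses from 0.0617 to -0.0926. The stronger 50% alone had 1059 members in none, since fewer members entered. The share at gene ends was 7.12% within 2500 bp and 2.26% for members 1000 bp or more from other lists. Membership without the CAST list gave 13038 members, and with 1000 bp 12147. The cause of the reversals and of the p-values that fell short was not tested. Alternatives for the weaker 50% were chosen after seeing the data: within 200 bp the 6 crosses with CAST, MOL and PWD held 4.80% to 6.71% and those with 13R 0.0573% to 0.172%; with any overlap of intervals 6.81% to 10.1% and 0.989% to 1.56%. Depth is unknown, so absence from a list means only that no hotspot was listed. No replicate block was fitted, since the labels give no replicate numbers; the pairs tested were reciprocal crosses.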
